A study of Mus musculus with 18 samples.

Results

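WT and IRF5 KO macrophages were compared under LPS with defactinib, gene by gene, and each genotype difference was set against the same difference in unstimulated cells. All genes that passed the expression filter were taken, 15146 of the 50600 gene IDs in the count table, in the 3 WT and 3 IRF5 KO libraries of this treatment, out of 18 libraries in the series. The cells were mouse bone marrow-derived macrophages (BMDMs) grown with GM-CSF for 8 days. Defactinib, an inhibitor of the kinases FAK and PYK2, was given at 3.5 µM for 1 h, and LPS was then added at 100 ng/ml for 2 h, to both genotypes. The reference was 3 WT and 3 IRF5 KO unstimulated libraries, which the labels and the study describe as given DMSO and the column names as untreated. Another pair of groups, LPS with DMSO in place of defactinib, was used for values beside the results. LPS and defactinib were added together between the 2 conditions compared, so their effects cannot be told apart there. WT mice were male C57BL/6J mice of 8 to 11 weeks; the source, sex and background of the IRF5 KO mice are not given in the sources used here.

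IRF5 is a transcription factor of the interferon regulatory factor family. Toll-like receptors such as TLR4, the receptor for LPS, signal through MYD88, IRAK kinases and TRAF6 to NF-kB, to MAP kinases and to IRF5, and through TRIF to IRF3 and interferon-beta. NF-kB and the MAP kinases drive the early wave of macrophage genes (immediate-early transcription factors, TNF and the CXCL chemokines). IRF5 is known for Il12b and other inflammatory cytokine genes. Interferon-beta drives a later wave of antiviral genes.

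Depth ranged from 40682747 to 61949143 counted read pairs over the 12 libraries. Levels are given as CPM, which scales the counts of a gene to the size of its library and leaves gene length out, so levels are compared between libraries and not between genes. Replicates of the IRF5 KO LPS defactinib group lay close together (median SD of log2 CPM 0.106 per gene), as did the unstimulated groups (0.0947 in WT, 0.116 in IRF5 KO), whereas the WT LPS defactinib group had a median SD of 0.28. WT LPS defactinib replicate 3 stood apart from replicates 1 and 2, most of all in interferon response genes. Values that it moved most are also given without it. Pairs of libraries within a group differed by more than sampling noise alone gives (mean chi-square per gene 3.82 or more in the 12 libraries, against 1). The lowest median was 1.24, for WT unstimulated replicates 1 and 2. All were counted as separate libraries, but these values do not show separate cultures or mice. IRF5 KO LPS DMSO replicate 3 stood apart from the other 2 libraries of its group. Values of that group are given per library or with and without it. Y-linked genes were present in all 12 libraries and Xist was at most 0.0479 CPM. Macrophage genes were high in every library (the list of 31 tested genes summed to 17500 to 29400 CPM). The T and NK cell markers Cd3e and Ncr1, the early granulocyte markers Elane and Mpo and the mast cell and basophil markers Fcer1a and Mcpt8 were each below 1 CPM in all 12. The granule genes Ngp and Camp were at 8.7 to 30.5 CPM and 1.14 to 4.35 CPM, and the 10 tested genes of the mast cell and basophil list summed to 484 to 1120 CPM. In bulk RNA, fewer cells of a type and less RNA per cell cannot be told apart.

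Irf5 (chr6:29526625-29541871, mm10), the gene targeted in the knockout, stood at 609, 628 and 677 CPM in the 3 WT unstimulated libraries and at 343, 412 and 377 CPM in IRF5 KO. Under LPS with defactinib it was at 220, 253 and 401 CPM in WT and at 379, 403 and 367 CPM in IRF5 KO. The unstimulated libraries did not overlap between genotypes. The treated ones did. The log2 fold change, WT over IRF5 KO as in all values below, was 0.76 at rest (adjusted p = 0.00644, edgeR's quasi-likelihood test) and -0.40 ± 0.17 (SE) with the treatment (adjusted p = 0.0722), and the change between them was -1.15 (adjusted p = 0.0036). That change was -0.99 without WT LPS defactinib replicate 1, just inside the threshold of 1 used for calls. Counts over the whole gene do not show which exons the knockout removes, so they do not check the genotype labels. Ptk2b, which encodes PYK2, stood at 108, 109 and 129 CPM in treated WT and at 169, 171 and 157 CPM in treated IRF5 KO. The log2 fold change was -0.52 (adjusted p = 0.000214), less than the 2-fold used for calls. For Ptk2, which encodes FAK, the treated levels were 29.1, 25.4 and 19.6 CPM in WT and 33.9, 34.7 and 34.9 CPM in IRF5 KO (log2 fold change -0.48, adjusted p = 0.00652).

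More genes differed between the genotypes under LPS with defactinib than at rest. A gene was called at an adjusted p below 0.05 and a fold change above 2. With the treatment 3033 of 15146 genes were called (20%), of which 1569 were higher in WT (10.4%) and 1464 lower (9.67%). At rest 688 genes were higher in WT (4.54%) and 600 lower (3.96%). The interaction of genotype and condition, the test of whether the genotype difference itself changed, called 782 genes in the direction of WT (5.16%) and 1046 in the direction of IRF5 KO (6.91%). Scaling by library size alone, in place of TMM, turned this split to 1225 and 832 genes and the resting split to 583 higher and 741 lower. With the treatment it gave 1689 higher and 1345 lower. It moved the median of all genes from 0.06 to 0.23 in the change, from -0.01 to -0.12 at rest and from 0.05 to 0.10 with the treatment.

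These calls fell into differences that remained, appeared, vanished or turned. A difference remained in 771 genes, called in both conditions in the same direction: 484 higher in WT and 287 lower, together 59.9% of the resting calls and 25.4% of the treated ones. It appeared in 1194 genes, called with the treatment, not at rest, and in the interaction: 372 higher in WT and 822 lower (527 and 676 under library size alone). It vanished in 155 genes, called at rest, not with the treatment, and in the interaction: 42 higher in WT and 113 lower (31 and 192 under library size alone). In 31 genes it turned to the opposite direction. A further 1037 genes were called only with the treatment and 331 only at rest while the interaction did not call them, so for these no change of the difference is shown. Across all tested genes the 2 sets of log2 fold changes, which come from different libraries, had a Pearson r of 0.506 and a Spearman rho of 0.358 (genes are not independent replicates), and 1139 of the 1288 resting calls (88.4%) kept their sign. Of the 3033 treated calls, 2896 had libraries that did not overlap between the genotypes, as did 7953 of all tested genes (52.5%).

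**Figure D1:**
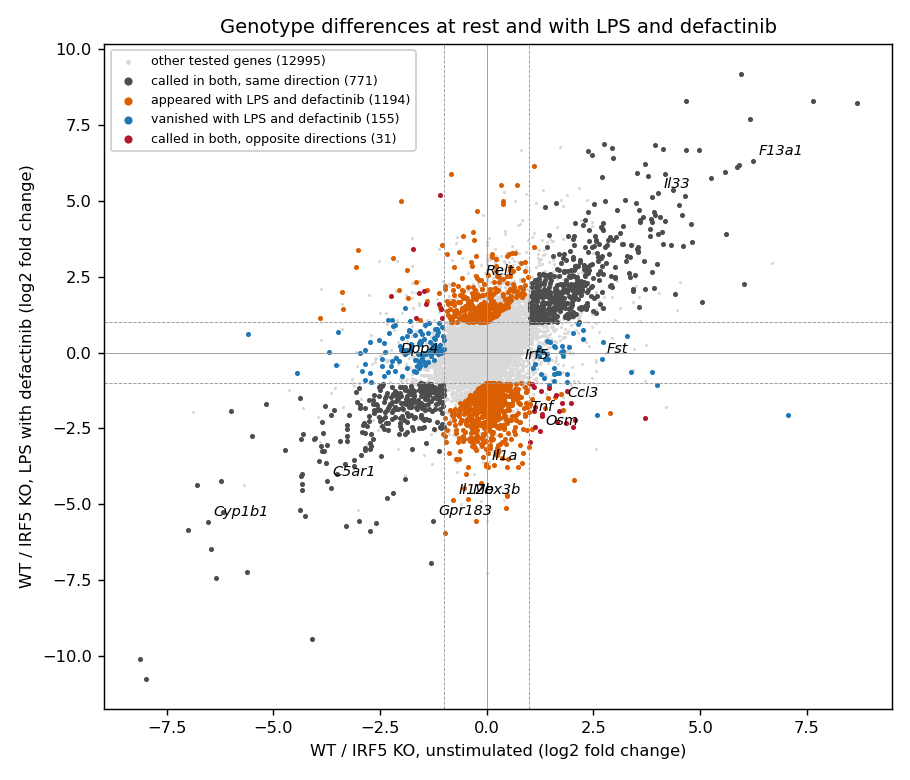
Log2 fold change of WT over IRF5 KO in unstimulated cells (horizontal axis) and under LPS with defactinib (vertical axis) for 15146 genes, 3 libraries per group. Genes called in both conditions (771) lie along the diagonal, genes whose difference appeared (1194, of which 822 lower in WT) lie above and below the centre, and genes whose difference vanished (155) lie to its left and right; dashed lines mark the 2-fold threshold.

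Differences that remained were of like size in both conditions. Genes higher in WT had a median log2 fold change of 1.84 at rest and 2.04 with the treatment, and genes lower in WT of -1.94 and -1.81. The interaction called 58 of the 771, beside 1828 of all 15146 tested genes. Of the 58, 35 were larger with the treatment and 23 smaller. The like size follows in part from the rule, which asks for a call in the same direction in both conditions. F13a1, the A subunit of coagulation factor XIII and a marker of alternatively activated macrophages (chr13:36867178-37050244), was at 127, 153 and 25.7 CPM in treated WT and at 1.16, 1.13 and 1.55 CPM in treated IRF5 KO. At rest the levels were 94.1, 92.2 and 91.5 and 1.20, 1.64 and 0.855 CPM. All WT libraries were thus far above all IRF5 KO libraries, with WT LPS defactinib replicate 3 the lowest of the 6 (log2 fold change 6.33 ± 0.65 with the treatment, 6.23 at rest). That the treated libraries do not overlap was part of the rule by which this gene was named. Spns2, a transporter that exports sphingosine-1-phosphate, was at 71.5, 64.4 and 50.5 CPM against 1.09, 1.04 and 1.35 CPM with the treatment (5.75 ± 0.21, adjusted p = 1.07e-09) and differed by 5.26 at rest. Eef1a2, a translation elongation factor, was at 58.7, 79.0 and 23.6 CPM against 2.52, 2.72 and 2.02 CPM. The difference was 4.47 ± 0.39 and, at rest, 4.07.

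Il33, an alarmin of the IL-1 family, rose in WT from 34.2, 33.0 and 50.1 to 127, 65.7 and 107 CPM (adjusted p = 0.000329). IRF5 KO was at 1.92, 3.10 and 2.24 at rest and 2.49, 2.49 and 2.84 CPM with the treatment. Its genotype difference was 4.02 at rest and 5.26 ± 0.29 with the treatment. The change of 1.24 (adjusted p = 0.024) lost its call without any 1 of IRF5 KO LPS defactinib replicates 1 and 2, IRF5 KO unstimulated replicate 2 and WT unstimulated replicates 1 and 2 (adjusted p = 0.0545 to 0.0696). Cyp1b1, a cytochrome P450 induced through the aryl hydrocarbon receptor (AHR), was the opposite case, at 57.7, 55.8 and 57.2 CPM in treated IRF5 KO against 1.20, 0.337 and 2.07 CPM in treated WT. At rest it was at 158, 124 and 157 against 1.53, 1.40 and 1.82 CPM. The genotypes did not overlap with the treatment, as the naming rule asks, or at rest (-5.57 ± 0.36 and -6.53). Without WT LPS defactinib replicate 3 the treated difference was -6.18. C5ar1, the receptor for complement C5a, was at 5.24, 2.96 and 2.91 CPM in treated WT and at 70.2, 70.6 and 71.8 CPM in treated IRF5 KO (-4.25 ± 0.28, adjusted p = 2.26e-07). At rest it was at 4.41, 4.33 and 2.34 against 56.0, 37.0 and 56.3 CPM. Serpinb2, an inhibitor of plasminogen activators, was at 38.3, 17 and 92.3 CPM in treated WT and at 679, 622 and 674 CPM in treated IRF5 KO (-3.74 ± 0.50; -4.58 without WT LPS defactinib replicate 3). Its change from rest was -0.65 and not called, and -1.48 and called (adjusted p = 0.00642) without that library.

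Gpr183, the oxysterol receptor EBI2, differed at rest (17.5, 17.8 and 13.1 CPM in WT against 36.6, 41.0 and 37.8 CPM in IRF5 KO). With the treatment WT fell to 1.08, 0.623 and 1.11 CPM and IRF5 KO stood at 45.9, 43.8 and 42.7 CPM. The difference went from -1.25 to -5.55 ± 0.19, a change of -4.30 (adjusted p = 8.2e-08). The following genes were chosen after their values were seen. Lif, a cytokine of the IL-6 family, was at 3.14, 2.05 and 0.816 CPM in treated WT against 116, 124 and 117 CPM in treated IRF5 KO. At rest it was below 1 CPM in WT against 3.83 to 5.34 CPM in IRF5 KO, and the change was -3.15 (adjusted p = 0.000539). Gata2, a transcription factor of mast cells and basophils and of early progenitors, was at 0.694, 0.337 and 0.952 CPM in treated WT against 33.4, 38.0 and 34.0 CPM in treated IRF5 KO (-5.73 ± 0.21, and a change of -2.44 from rest). The mast cell and basophil markers named above were below 1 CPM in both. The 10 tested genes of their list, Gata2 among them, had a mean log2 CPM of 2.328 to 2.855 in treated WT and 3.031 to 3.367 in treated IRF5 KO. At rest the means were 2.088 to 2.278 in WT and 3.183 to 3.286 in IRF5 KO. There 3 of the 10 were lower in WT and 0 higher (3.96% and 4.54% of all genes).

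**Figure D2:**
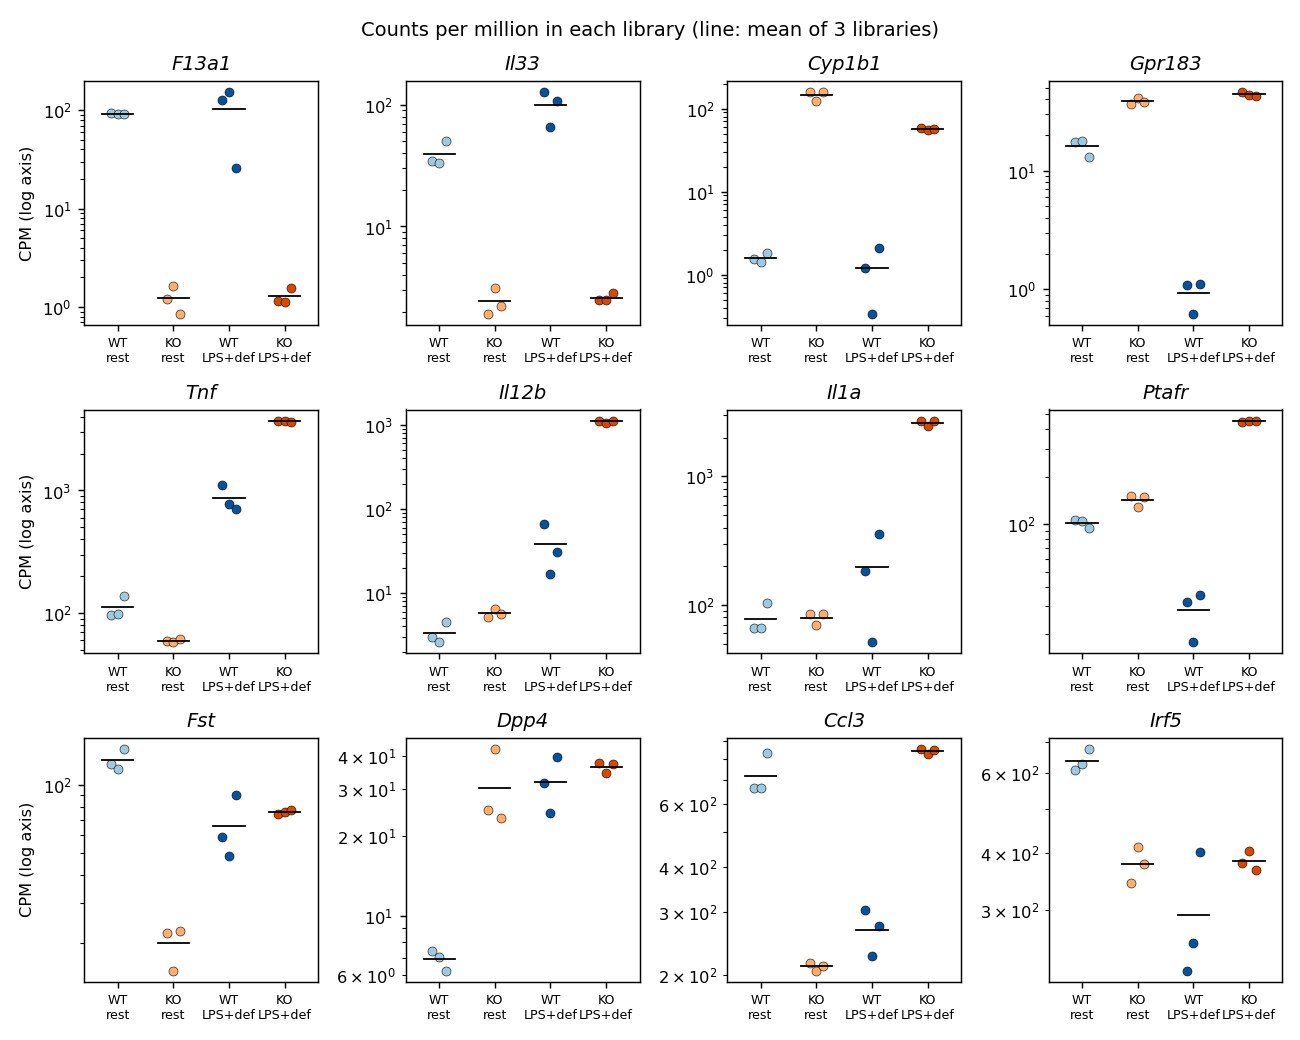
CPM (log axes, a separate scale per gene) of 12 genes in the 3 WT and 3 IRF5 KO libraries at rest and under LPS with defactinib; each point is 1 library and each line the mean of 3. The top row shows differences present in both conditions, the middle row differences that appeared with all treated WT libraries below the IRF5 KO libraries, and the bottom row differences that vanished (Fst, Dpp4) or turned (Ccl3), and Irf5 itself.

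Genes of macrophage state were among those that kept their difference. Of 19 tested genes of alternative activation 8 were called in both conditions with the same sign, beside 5.09% of all genes. Mrc1, the mannose receptor, was at 168, 233 and 110 CPM in treated WT against 65.8, 57.4 and 61.2 CPM in treated IRF5 KO (1.47 in the treated cells and 1.46 at rest). Retnla, a secreted marker of the same state, went the other way, at 4.98, 0.545 and 0.190 CPM against 41.6, 38.6 and 41.5 CPM (-4.38 ± 0.75; -6.77 without WT LPS defactinib replicate 1). Of 31 macrophage identity genes 7 were higher and 5 lower in treated WT, and 6 kept their difference (10.4%, 9.67% and 5.09% of all genes). Marco, a scavenger receptor, was at 146, 218 and 168 CPM in treated WT against 25.6, 26.9 and 24 CPM (2.80 ± 0.16, and 2.06 at rest). Adgre1, which encodes F4/80, was at 136, 162 and 363 CPM against 561, 533 and 558 CPM (-1.32 ± 0.28, and -2.04 at rest). The neutrophil list had no member higher in treated WT and 5 of 21 lower, all 5 lower at rest too (9.67% of all genes lower in treated WT, and 5.09% called in both conditions). At rest 8 of the 21 were lower, beside 3.96% of all genes. Mmp8, a collagenase, was at 363, 281 and 185 CPM in treated WT and 2670, 2460 and 2630 CPM in treated IRF5 KO (-3.23 ± 0.24, and -2.86 at rest). Mmp9, a gelatinase, was at 25.0, 25.8 and 13.2 CPM against 152, 180 and 156 CPM (-2.93 ± 0.23). The list summed to 601 to 779 CPM in treated WT and 3100 to 3330 CPM in treated IRF5 KO. At rest it summed to 369 to 385 CPM in WT and 1390 to 2100 CPM in IRF5 KO. A sum follows its most abundant members. The mean log2 CPM of the list was 1.932, 2.329 and 2.869 in treated WT and 3.143, 3.233 and 3.162 in treated IRF5 KO. Its median log2 fold change with the treatment was -0.38, with 7 of 21 members above 0. Elane, Mpo and Ly6g were below 1 CPM throughout, while Ngp was at 9.82 to 30.5 CPM in treated WT and 16.5 to 17.7 CPM in treated IRF5 KO and Camp at 1.15 to 4.35 and 1.55 to 1.94 CPM. Dendritic cell genes summed to 18300 to 20700 CPM in treated WT and 11000 to 11200 CPM in treated IRF5 KO. At rest they summed to 10100 to 11000 CPM in WT and 7120 to 8500 CPM in IRF5 KO. Their mean log2 CPM had the reverse order with the treatment, 5.005 to 5.081 in WT and 5.247 to 5.267 in IRF5 KO. Of 18 members 4 were higher and 4 lower in treated WT (10.4% and 9.67% of all genes). Of lists of other cells, mast cell and basophil genes had 1 of 10 tested members higher and 2 lower in treated WT, T, B and NK cell genes 3 higher and 1 lower of 6, and fibroblast genes 1 higher and 1 lower of 6. The part of these lists in other results was not tested.

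Differences that appeared were mostly of genes lower in treated WT than in treated IRF5 KO. The 822 genes had a median log2 fold change of 0.01 at rest and -1.60 with the treatment, and their median change from rest was -1.31 in WT and 0.35 in IRF5 KO. From rest to treatment, 506 of the 822 were called lower and 51 higher in WT, and 237 were called higher and 99 lower in IRF5 KO; 186 rose in IRF5 KO without a called rise in WT. The 372 genes higher in treated WT had a median of -0.11 at rest and 1.48 with the treatment, with a median change of 0.09 in WT and -1.45 in IRF5 KO, where 232 were called lower than at rest. These counts follow in part from the rule, which asks the 2 genotypes to move apart.

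The gene lists that read out the early TLR4 response were on the lower side in treated WT. Immediate-early genes, transcription factors and phosphatases that need no new protein synthesis, had 16 of 28 members lower and none higher in treated WT, beside 9.67% and 10.4% of all genes. At rest 5 members were higher and none lower. The interaction called 20 in the direction of IRF5 KO and none in the other (6.91% and 5.16% of all genes). Their median log2 fold change was 0.40 at rest and -1.29 with the treatment. The mean log2 CPM of the list was 5.14 to 5.39 in WT and 4.81 to 4.92 in IRF5 KO at rest, and 4.93 to 5.31 in WT and 6.30 to 6.51 in IRF5 KO with the treatment. Every treated IRF5 KO library lay above the resting range of its genotype, and no treated WT library did. NF-kB targets and feedback regulators had 13 of 28 members lower and 2 higher in treated WT, with none lower and 1 higher at rest. Cytokines had 15 of 28 lower and 4 higher, with 3 in each direction at rest. Chemokines had 8 of 22 lower and 4 higher in treated WT, and receptors of cytokines and chemokines 10 of 31 lower and 3 higher. The number of members lower in treated WT stayed at 15 to 18 for immediate-early genes, 12 to 14 for NF-kB genes and 13 to 16 for cytokines when each library was left out in turn.

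**Figure D3:**
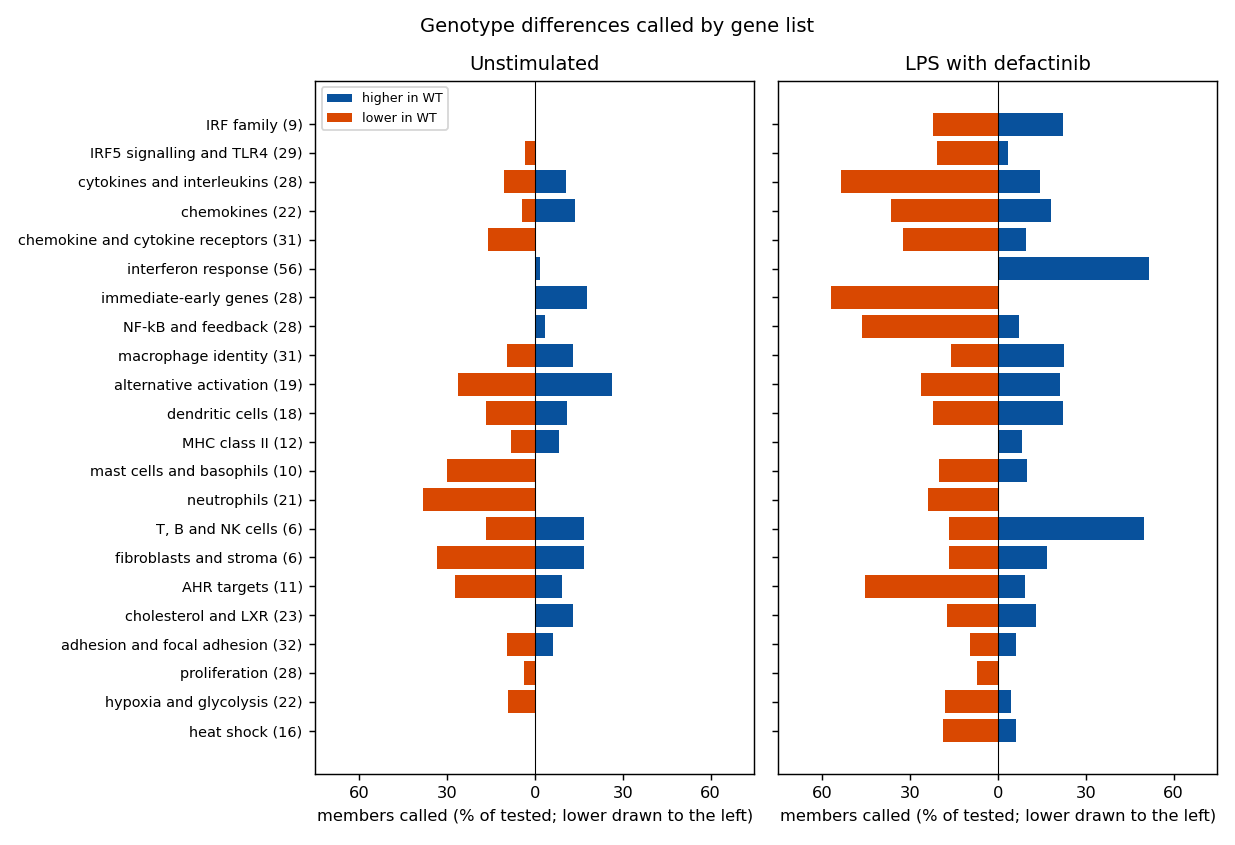
Share of the tested members of 22 gene lists (number tested in brackets) called higher (right, blue) or lower (left, orange) in WT than in IRF5 KO, at rest and under LPS with defactinib. Immediate-early genes, cytokines and NF-kB genes extend to the left with the treatment (16, 15 and 13 of 28 lower in WT) and interferon response genes to the right (29 of 56), a count that is 5 without WT LPS defactinib replicate 3.

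Among cytokines, Tnf (chr17:35199381-35202007) was at 1100, 780 and 703 CPM in treated WT and at 3710, 3690 and 3630 CPM in treated IRF5 KO. At rest it was at 97.6, 98.0 and 139 CPM in WT and at 59.8, 58.1 and 61.5 CPM in IRF5 KO. It rose in both genotypes, with the order of the genotypes turned: 0.90 at rest, -2.10 ± 0.16 with the treatment (adjusted p = 4.54e-07) and a change of -2.99 (adjusted p = 1.27e-06). Il12b, which encodes the p40 subunit of IL-12 and IL-23 (chr11:44400063-44414033), was at 66.9, 17 and 30.4 CPM in treated WT and at 1120, 1050 and 1120 CPM in treated IRF5 KO. The resting levels were 2.97, 2.60 and 4.53 CPM and 5.14, 6.52 and 5.64 CPM. Its difference was -4.85 ± 0.46 with the treatment (adjusted p = 1.33e-05) and -0.78 at rest, a change of -4.06 (-5.54 and a change of -4.75 without WT LPS defactinib replicate 1). Il1a was at 183, 51.3 and 357 CPM in treated WT and at 2720, 2450 and 2700 CPM in treated IRF5 KO (-3.73 ± 0.58, a change of -3.71; -4.49 and -4.46 without WT LPS defactinib replicate 3). The treated WT libraries were spread widely here and all lay below those of IRF5 KO.

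Il1b, the other main IL-1 cytokine, was at 207, 69.1 and 984 CPM in treated WT against 1930, 1790 and 1870 CPM in treated IRF5 KO. The difference of -2.15 ± 0.75 passed the threshold (adjusted p = 0.0376) and lost it when any of 9 libraries other than WT LPS defactinib replicates 2 and 3 and WT unstimulated replicate 3 was left out (adjusted p = 0.0521 to 0.0893). It was -3.76 (adjusted p = 0.000152) without WT LPS defactinib replicate 3. Its change from rest was not called (-2.67, adjusted p = 0.0864), and without that library it was -4.27 and called (adjusted p = 0.000505). Il6 was at 3.95, 0.727 and 14.4 CPM in treated WT against 108, 95.4 and 106 CPM in treated IRF5 KO (-4.03 ± 0.73, adjusted p = 0.00128; -5.44 without WT LPS defactinib replicate 3). Below 1 CPM in all resting libraries, Il6 had no called change of the difference (-2.12, adjusted p = 0.449; -3.53, adjusted p = 0.0507, without that library). Il23a, the p19 subunit of IL-23, was at 5.03, 1.71 and 1.88 against 29.4, 30.1 and 31.8 CPM (-3.39 ± 0.32, adjusted p = 2.79e-06). Its change was not called (-1.93, adjusted p = 0.27). Without WT LPS defactinib replicate 1 the difference was -4.08 and the change -2.62 and called (adjusted p = 0.0094). Il12a was at 0.239, 0.0519 and 4.40 CPM against 2.09, 2.40 and 1.82 CPM and was not called (adjusted p = 0.733). Without WT LPS defactinib replicate 3, the highest of the 6, it was called at -3.80 (adjusted p = 5.85e-05). Il10 did not pass the expression filter.

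Among the chemokines, Ccl3 (chr11:83647844-83649355), which attracts monocytes and T cells, turned. At rest it was at 665, 663 and 829 CPM in WT and 217, 206 and 212 CPM in IRF5 KO (1.76), and with the treatment at 303, 226 and 274 CPM and 853, 824 and 848 CPM (-1.65 ± 0.11, adjusted p = 1.25e-07). WT fell and IRF5 KO rose, a change of -3.42 (adjusted p = 2.99e-08). The difference vanished for Ccl4, a related chemokine, which was at 233, 228 and 297 CPM against 96.0, 72.5 and 85.0 CPM at rest (1.58). It was at 498, 339 and 278 CPM against 718, 698 and 742 CPM with the treatment, where the difference of -0.95 was short of the 2-fold (-1.22 and called without WT LPS defactinib replicate 1). Ccl22, a ligand of CCR4, was higher in treated WT, at 11900, 9660 and 11100 CPM against 4850, 4810 and 4870 CPM (1.17 ± 0.12, and 0.08 at rest). Its change of 1.09 was 0.94 without IRF5 KO unstimulated replicate 2. The neutrophil chemokines Cxcl1 and Cxcl2, chosen after their values were seen, were induced in both genotypes and less in WT. Cxcl1 stood at 53.3, 47.2 and 37.8 CPM in treated WT and 271, 287 and 292 CPM in treated IRF5 KO (-2.62 ± 0.18), from below 1 CPM in all resting libraries. Cxcl2 reached 1200, 994 and 881 CPM and 3960, 3890 and 4230 CPM (-1.97 ± 0.22).

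Of 29 tested genes of IRF5 signalling and TLR4 6 were lower and 1 higher in treated WT, against 1 lower and none higher at rest. The 24.1% called with the treatment is near the 20% of all genes. The following 4 were chosen after their values were seen. Traf6, the ubiquitin ligase of the MYD88 pathway, was at 74.1, 42.6 and 69.4 CPM in treated WT against 190, 182 and 191 CPM in treated IRF5 KO (-1.59 ± 0.15, adjusted p = 2.89e-06), from 48.1 to 51.9 CPM in all 6 resting libraries. Irak2, a kinase-like partner of the same complex, was at 38.7, 36.7 and 51.3 CPM against 197, 205 and 195 CPM (-2.24 ± 0.11). Cd14, the LPS co-receptor, was at 112, 68.9 and 142 CPM against 395, 399 and 383 CPM (-1.87 ± 0.20). Its change from rest, -1.11, was -0.88 without WT LPS defactinib replicate 2. Irf1, another member of the IRF family, was at 23.4, 20.6 and 20.1 CPM against 100, 101 and 99.4 CPM (-2.23 ± 0.08), against 31.1 to 34.0 and 47.4 to 50.9 CPM at rest. Irf4, which competes with IRF5 for MYD88, fell in both genotypes. It went in WT from 524, 526 and 544 to 27.7, 16.4 and 32.4 CPM and in IRF5 KO from 319, 367 and 318 to 169, 159 and 165 CPM (-2.69 ± 0.19, a change of -3.36).

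Klf6, an immediate-early transcription factor, was at 410, 198 and 386 CPM in treated WT, below its 445 to 470 CPM at rest (change in WT -0.45, adjusted p = 0.061), and at 1450, 1340 and 1490 CPM in treated IRF5 KO, up from 335 to 358 CPM (-2.11 ± 0.20, a change of -2.51). Mcl1, which protects from apoptosis, fell in WT from 473 to 482 CPM at rest to 166, 140 and 197 CPM and stood at 428, 422 and 434 CPM in treated IRF5 KO (-1.35 ± 0.10). Dusp5, a phosphatase that turns off ERK, was at 19.7, 11.9 and 13.6 CPM against 200, 220 and 204 CPM (-3.78 ± 0.19, and -0.45 at rest). Nfkb1, the p105 subunit of NF-kB, was at 553, 408 and 769 CPM against 1030, 1020 and 1010 CPM (-0.82, short of the 2-fold, and -1.09 and called without WT LPS defactinib replicate 3). Acod1, which makes itaconate, was at 183, 86.3 and 479 CPM against 872, 834 and 866 CPM (-1.78 ± 0.48; -2.68 without that library). Its change from rest, -1.64, was not called (adjusted p = 0.0953), and it was -2.53 and called without that library (adjusted p = 4.41e-05). Of genes chosen after their values were seen, the NF-kB inhibitor gene Nfkbia was at 564, 490 and 483 CPM against 1080, 1180 and 1090 CPM (-1.12 ± 0.07). Nfkbiz, a nuclear regulator of NF-kB targets, was at 809, 524 and 667 CPM against 2940, 3010 and 2990 CPM (-2.16 ± 0.17). Its change from rest, -1.18, was -0.98 without WT unstimulated replicate 3. The cytokine signalling inhibitor Socs3 was at 236, 188 and 185 CPM against 978, 1080 and 947 CPM (-2.31 ± 0.10, a change of -3.08). Ptgs2, the inducible cyclooxygenase, was at 81.1, 24.5 and 229 CPM against 1010, 938 and 1010 CPM (-3.14 ± 0.62), and its change from rest was not called (-2.96, adjusted p = 0.0569). Without WT LPS defactinib replicate 3 these were -4.22 and -4.04, the change then called (adjusted p = 0.00289), and without replicate 2 the change was -2.49 and called (adjusted p = 0.012).

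Egr1 and Jun, also chosen after their values were seen, were induced in both genotypes. Egr1 reached 554, 581 and 408 CPM in treated WT and 804, 921 and 776 CPM in treated IRF5 KO, from 21.9, 22.4 and 29.6 CPM and 9.17, 6.54 and 8.94 CPM at rest. The resting difference of 1.58 became -0.70, short of the 2-fold (a change of -2.28, adjusted p = 1.46e-05). Jun was at 263, 271 and 125 CPM against 502, 550 and 507 CPM (-1.24 ± 0.22, a change of -1.09). Without WT LPS defactinib replicate 3 these were -0.96 and -0.81, both short of the 2-fold. Nr4a1, an orphan nuclear receptor, was at 5.82, 5.19 and 3.45 CPM against 32.6, 34.5 and 30.4 CPM (-2.75 ± 0.23), from 1.96 to 3.54 CPM in all resting libraries.

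By size, the 4 genes that appeared lower in WT and met the naming rule were Il12b, Mex3b, Ptafr and Dusp5. Mex3b, an RNA-binding protein, fell in WT from 8.74, 8.51 and 7.34 to 2.23, 1.71 and 2.26 CPM and rose in IRF5 KO from 10.5, 11.9 and 11.2 to 58.3, 62.9 and 56.5 CPM (-4.84 ± 0.13, adjusted p = 2.83e-10). Ptafr, the receptor for platelet-activating factor, fell in WT from 106, 105 and 94.3 to 31.8, 17.8 and 35.3 CPM and rose in IRF5 KO from 150, 129 and 149 to 445, 454 and 454 CPM (-3.99 ± 0.20). Those that appeared higher in WT were led by Relt, a receptor of the TNF receptor family. It fell in WT from 51.7, 53.3 and 57.5 to 22.1, 35.7 and 40.8 CPM and further in IRF5 KO, from 59.3, 57.4 and 63.5 to 5.50, 6.86 and 6.60 CPM (2.38 ± 0.18, a change of 2.53). Serinc5, a membrane protein known as a restriction factor, was at 19.7, 22.4 and 39.6 CPM in treated WT against 5.25, 5.34 and 6.13 CPM (2.29 ± 0.22). Tnfsf8, the CD30 ligand, was at 62.8, 37.7 and 68.4 CPM against 12.1, 11.9 and 12.3 CPM (2.22 ± 0.20). Gpr35, a G protein-coupled receptor, was at 35.1, 26.2 and 44.9 CPM against 8.72, 8.36 and 7.76 CPM (2.09 ± 0.15). In the fit of all 18 libraries the change from rest of Tnfsf8 and of Gpr35 was not called (adjusted p = 0.38 and 0.0937).

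Of 11 tested AHR targets 5 were lower and 1 higher in treated WT, beside 9.67% and 10.4% of all genes. At rest 3 were lower and 1 higher (3.96% and 4.54%). Tiparp, a mono-ADP-ribosyltransferase that limits AHR, was at 66.8, 37.7 and 39.9 CPM in treated WT against 474, 436 and 467 CPM in treated IRF5 KO. At rest it was at 67.1 to 72.2 against 102 to 116 CPM (-3.25 ± 0.18, a change of -2.62). Ahrr, the AHR repressor, and Ahr itself were chosen after their values were seen. Ahrr was at 10.8, 8.98 and 18.7 CPM against 73.7, 69.3 and 70.8 CPM (-2.47 ± 0.20, and -1.58 at rest). Its change of -0.89 was short of the 2-fold and was -1.26 and called without WT LPS defactinib replicate 3 (adjusted p = 2.73e-06). Ahr was at 45.3, 19.2 and 47.0 CPM against 121, 115 and 119 CPM (-1.67 ± 0.26, and 0.22 at rest). Of 23 genes of cholesterol synthesis, uptake and export the interaction called 7 in the direction of IRF5 KO and none in the other (6.91% and 5.16% of all genes). Hmgcs1, an early enzyme of cholesterol synthesis, was at 267 to 272 CPM in WT and 132 to 147 CPM in IRF5 KO at rest. With the treatment it was at 26.8, 24.7 and 20.2 CPM against 82.3, 78.6 and 82.8 CPM (-1.77 ± 0.10). It was chosen after its values were seen.

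Genes whose difference vanished were not called with the treatment, and in some, such as Furin and Ccl4, the treated libraries of the genotypes still did not overlap. Fst, the activin antagonist follistatin, was at 124, 118 and 144 CPM in WT and 22.1, 15.1 and 22.6 CPM in IRF5 KO at rest (2.69). It was at 58.6, 48.3 and 90.0 CPM and 74.4, 75.5 and 77.5 CPM with the treatment (-0.21 ± 0.20, adjusted p = 0.415). WT libraries fell and IRF5 KO libraries rose to overlap. Furin, a proprotein convertase, fell in WT from 239, 250 and 264 to 64.9, 81.2 and 76.6 CPM, below the 119, 129 and 110 CPM of treated IRF5 KO (1.64 at rest, -0.68 with the treatment). Sema7a, a semaphorin, was at 42.7, 37.7 and 108 CPM against 68.1, 69.1 and 67.2 CPM with the treatment (1.79 at rest, a change of -1.91, -2.55 without WT LPS defactinib replicate 3). Inhba, the activin A subunit, was at 214, 128 and 427 CPM against 155, 152 and 157 CPM with the treatment. Its change of -1.52 (adjusted p = 0.0314) lost its call when any library other than WT LPS defactinib replicates 2 and 3 was left out (adjusted p = 0.055 to 0.0758). Without replicate 2 it was called as higher in treated WT (1.05).

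Lower in WT only at rest was Dpp4, a dipeptidyl peptidase of the cell surface, at 7.42, 7.04 and 6.25 CPM against 25.1, 42.5 and 23.4 CPM at rest (-2.13). With the treatment it was at 31.7, 24.5 and 39.6 CPM against 37.7, 34.5 and 37.4 CPM (-0.19 ± 0.21, adjusted p = 0.467). WT rose (adjusted p = 3e-06) while no change was called in IRF5 KO (adjusted p = 0.282). Dpysl5, a collapsin response mediator, went in WT from 2.52, 2.60 and 4.06 to 15.3, 17 and 31.5 CPM, beside 16, 19 and 16.3 CPM in treated IRF5 KO (-2.40 at rest, 0.31 with the treatment). Dpy19l3, a mannosyltransferase, was at 8.36, 6.31 and 11.8 CPM against 9.43, 9.31 and 8.56 CPM with the treatment (-1.91 at rest). Il2ra, the alpha chain of the IL-2 receptor, was at 29.1, 35.7 and 105 CPM against 81.2, 72.8 and 78 CPM. Its change of 1.79 (adjusted p = 0.0435) lost its call when any library other than WT LPS defactinib replicates 1 and 2 was left out (0.98 without replicate 3, where the treated difference was called at -1.26). Ccnd2, cyclin D2, also met the rule (-1.16 at rest, 0.58 with the treatment), but its resting call was lost without IRF5 KO unstimulated replicate 2 or any WT unstimulated library (adjusted p = 0.0604 to 0.0775). Besides Ccl3, 2 genes were named among the 31 that turned, both lower in treated WT. Osm, oncostatin M, was at 28.5, 31.0 and 37.1 CPM against 13, 13.4 and 14.2 CPM at rest. With the treatment it was at 1.58, 1.12 and 2.20 CPM against 9.97, 9.74 and 9.36 CPM (1.25 and -2.57). Trib1, a pseudokinase, was at 79.6, 77.7 and 86.6 against 32.4, 41.4 and 36.8 CPM at rest and at 25.7, 16.5 and 10.5 against 96.6, 99.8 and 94.9 CPM with the treatment (1.14 and -2.46).

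Interferon response genes were the list most often called higher in treated WT, and these calls turned on 1 library. Of 56 tested members 29 were called higher in treated WT and none lower (10.4% and 9.67% of all genes), with 1 higher and none lower at rest. The interaction called 4 of the 56 in the direction of WT and none in the other (5.16% and 6.91% of all genes), and 12, 18 and 1 without WT LPS defactinib replicates 1, 2 and 3 and 0 to 3 without each other library. The count of 29 was 5 without WT LPS defactinib replicate 3, 41 and 45 without replicates 1 and 2, 10 with limma-voom, 16 with the replicate number as a block and 13 to 15 without each treated IRF5 KO library. The mean log2 CPM of the list was 3.78, 3.34 and 6.15 in the 3 treated WT libraries, 3.40 to 3.52 in treated IRF5 KO, 4.27 to 4.44 in WT at rest and 3.90 to 4.08 in IRF5 KO at rest. Replicates 1 and 2 of treated WT lay near treated IRF5 KO, and replicate 3 far above every other of the 12 libraries.

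Single genes showed the same split. Irf7, which amplifies the interferon response, was at 17.1, 11.6 and 937 CPM in treated WT and at 10.2, 10.6 and 8.97 CPM in treated IRF5 KO. The log2 fold change of 5.01 ± 1.48 (adjusted p = 0.0186) was 0.53 without WT LPS defactinib replicate 3 and was not called without any 1 of the treated IRF5 KO libraries (adjusted p = 0.0552 to 0.0609). Ccl5, a chemokine induced by interferon and NF-kB, was at 331, 305 and 2770 CPM against 139, 148 and 130 CPM (3.03 ± 0.76; 1.19, adjusted p = 1.55e-07, without replicate 3). All 3 treated WT libraries were above all treated IRF5 KO libraries. Its change from rest was not called (2.13, adjusted p = 0.157) except without WT LPS defactinib replicate 1 (2.56, adjusted p = 0.0497). Gbp2 was at 427, 272 and 1270 CPM against 332, 298 and 313 CPM, and Bst2, which tethers virions, at 158, 199 and 616 CPM against 169, 178 and 164 CPM, and neither was called (1.06 and 0.93, adjusted p = 0.0804 and 0.0885; 0.15 and 0.06 without replicate 3). Without replicate 1 or 2 both were called (1.29 and 1.43 for Gbp2, 1.26 and 1.18 for Bst2). Of genes chosen after their values were seen, the 2',5'-oligoadenylate synthetase gene Oas3 was at 39.2, 24.3 and 353 CPM against 19.1, 20 and 18.9 CPM (2.84 ± 0.85; 0.71 without replicate 3, and without any 1 of the treated IRF5 KO libraries adjusted p = 0.0538 to 0.0602). Ifi44 was at 3.97, 2.02 and 65.8 CPM against 0.781, 0.599 and 0.801 CPM (5.03 ± 1.23; 2.04 without replicate 3, still called). Mx2, an antiviral GTPase, was at 5, 3.92 and 10.1 CPM against 1.93, 1.96 and 1.88 CPM (1.72 ± 0.30, adjusted p = 0.000416). Its change of 1.29 was not called when any of most single libraries was left out (0.79 without replicate 3). Ifit1 went the other way in replicates 1 and 2, at 5.96, 3.76 and 32.6 CPM against 18.3, 17 and 18.1 CPM (-0.34, adjusted p = 0.681; -1.87, adjusted p = 2.5e-07, without replicate 3). The Ifnb1 transcript itself lay between 6.80 and 38.8 CPM in treated WT and between 16 and 18.7 CPM in treated IRF5 KO.

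Cxcl10, an interferon-inducible chemokine that TLR4 also induces early, did not follow that library. It was at 55.3, 44.1 and 28.9 CPM in treated WT and at 231, 206 and 234 CPM in treated IRF5 KO, from 1.74 to 2.67 CPM in all resting libraries (-2.39 ± 0.20, adjusted p = 1.00e-06; named after its values were seen). Promoters of these genes were searched for the core of the interferon-stimulated response element, to which IRF proteins bind. This was spelled as GAAA, 2 bases of any kind and GAAA, on either strand. The window ran from 250 bases before to 50 after the start of each gene (RefSeq, GRCm38.p6). The letters were in 410 of 10424 matched promoters of tested genes (3.93%) and in 26 of 43 of the interferon response list (60.5%). They were in 1.18% and 3.54% of promoters of genes that remained higher and lower in WT, in 7.03% and 2.76% of those that appeared higher and lower, and in 3.7% and 7.32% of those that vanished (27 and 82 promoters, so 1 and 6 genes). The windows of 4 genes are printed from 5' to 3' along the gene's strand with each match in capitals (a match on the other strand reads TTTC, 2 bases and TTTC). They are shown to set the position of the letters in genes whose responses differed: Ifit1 and Gbp2, high in WT LPS defactinib replicate 3, Cxcl10, low in all treated WT libraries, and Dpp4, lower in WT only at rest.
Ifit1, chr19:34640639-34640938, plus strand: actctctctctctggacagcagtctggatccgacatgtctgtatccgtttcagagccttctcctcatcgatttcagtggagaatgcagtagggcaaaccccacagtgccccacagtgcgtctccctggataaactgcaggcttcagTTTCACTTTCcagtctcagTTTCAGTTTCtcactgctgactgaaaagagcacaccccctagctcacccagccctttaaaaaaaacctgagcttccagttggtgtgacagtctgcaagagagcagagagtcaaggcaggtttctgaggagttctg
Gbp2, chr3:142620413-142620712, plus strand: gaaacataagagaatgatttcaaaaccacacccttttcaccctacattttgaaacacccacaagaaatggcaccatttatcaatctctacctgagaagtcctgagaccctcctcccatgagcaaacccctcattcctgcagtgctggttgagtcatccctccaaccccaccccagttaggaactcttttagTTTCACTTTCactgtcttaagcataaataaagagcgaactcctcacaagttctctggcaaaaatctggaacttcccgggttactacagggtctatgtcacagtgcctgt
Cxcl10, chr5:92348840-92349139, minus strand: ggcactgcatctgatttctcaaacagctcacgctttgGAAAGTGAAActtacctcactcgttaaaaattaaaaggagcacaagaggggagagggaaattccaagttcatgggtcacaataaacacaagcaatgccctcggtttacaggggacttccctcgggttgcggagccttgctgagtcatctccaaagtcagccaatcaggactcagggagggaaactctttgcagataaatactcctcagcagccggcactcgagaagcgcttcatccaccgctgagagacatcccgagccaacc
Dpp4, chr2:62412182-62412481, minus strand: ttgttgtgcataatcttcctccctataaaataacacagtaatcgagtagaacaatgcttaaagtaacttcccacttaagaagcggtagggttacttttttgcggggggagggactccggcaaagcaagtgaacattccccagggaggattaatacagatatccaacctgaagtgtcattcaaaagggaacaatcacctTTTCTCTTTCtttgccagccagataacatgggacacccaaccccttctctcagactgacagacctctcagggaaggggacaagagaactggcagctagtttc
Ifit1 holds 2 matches and the other genes 1 each. A match describes the letters and is not a measured site. GCGTG, the core to which the AHR complex binds, was in 5 of 7 matched AHR target promoters (71.4%) and in 54.7% of all.

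The same genotype contrast in LPS with DMSO was set beside these classes. It called 4036 of 15663 genes (25.8%) in all 18 libraries. IRF5 KO LPS DMSO replicates 1 and 2 lay near sampling noise (chi-square per gene with mean 2.33 and median 1.01, against 1). The fit without replicate 3 rests on them for that group. Without IRF5 KO LPS DMSO replicate 3, 5538 of 16037 genes were called (34.5%). By direction, 14% were higher and 11.8% lower in WT in all 18 libraries, and 20.7% and 13.8% without that library. Without that library, 359 of the 484 genes that remained higher in WT were also higher after LPS with DMSO and 5 were lower (350 and 4 in all 18 libraries). Of the 287 that remained lower 187 were lower and 24 higher (200 and 11 in all 18 libraries). Of the 822 genes that appeared lower in WT, 261 were higher in WT after LPS with DMSO and 109 lower (159 and 98 in all 18 libraries), the latter near the share of all genes. Of the 372 that appeared higher, 160 were higher and 48 lower (90 and 48 in all 18). Of the genes that vanished, 19 of 42 were higher, and 63 of 113 lower, as at rest (17 and 66 in all 18 libraries). By list, and against 20.7% higher and 13.8% lower of all genes, cytokines had 20 of 28 members higher and 3 lower in WT after LPS with DMSO, NF-kB genes 15 and 2 of 28, and interferon response genes 54 and 0 of 56, while immediate-early genes had 5 higher and 13 lower (17, 13, 53 and 3 higher in all 18 libraries).

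Single genes give these levels. After LPS with DMSO, Tnf was at 2610, 2140 and 2270 CPM in WT and 2490, 2500 and 1140 CPM in IRF5 KO. With defactinib the WT libraries lay below these and the IRF5 KO libraries above them. Il12b was at 2140, 2760 and 2230 CPM in WT and 610, 616 and 577 CPM in IRF5 KO, the reverse of the order with defactinib. Il6 was at 1090, 950 and 833 CPM against 28.3, 27.9 and 382 CPM. Il1b was at 3710, 2890 and 3060 CPM against 563, 568 and 1820 CPM, and Ccl3 at 2630, 1900 and 2110 CPM against 448, 452 and 1060 CPM. Egr1 was at 16.9, 10.7 and 14.2 CPM in WT and at 916, 885 and 6.99 CPM in IRF5 KO, where replicate 3 lay with the WT libraries. The defactinib and the DMSO genotype contrasts were also tested against each other, a comparison added after values were seen. It called 3568 of 15663 genes (22.8%) in all 18 libraries and 5067 of 16037 (31.6%) without IRF5 KO LPS DMSO replicate 3. The difference was -2.31 for Tnf and -2.03 without that library, -6.84 and -6.81 for Il12b, -6.76 and -9.14 for Il6, -3.88 and -4.69 for Il1b and -3.43 and -3.97 for Ccl3, called in both fits for these 5 genes. Among genes that remained, it was -4.03 and -4.70 for Gpr183 and -3.94 and -4.62 for C5ar1, called in both fits. It was called in neither fit for F13a1 (0.69, adjusted p = 0.471, and 1.04, adjusted p = 0.311) or Eef1a2 (0.54, adjusted p = 0.332, and 0.64, adjusted p = 0.304).

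**Figure D4:**
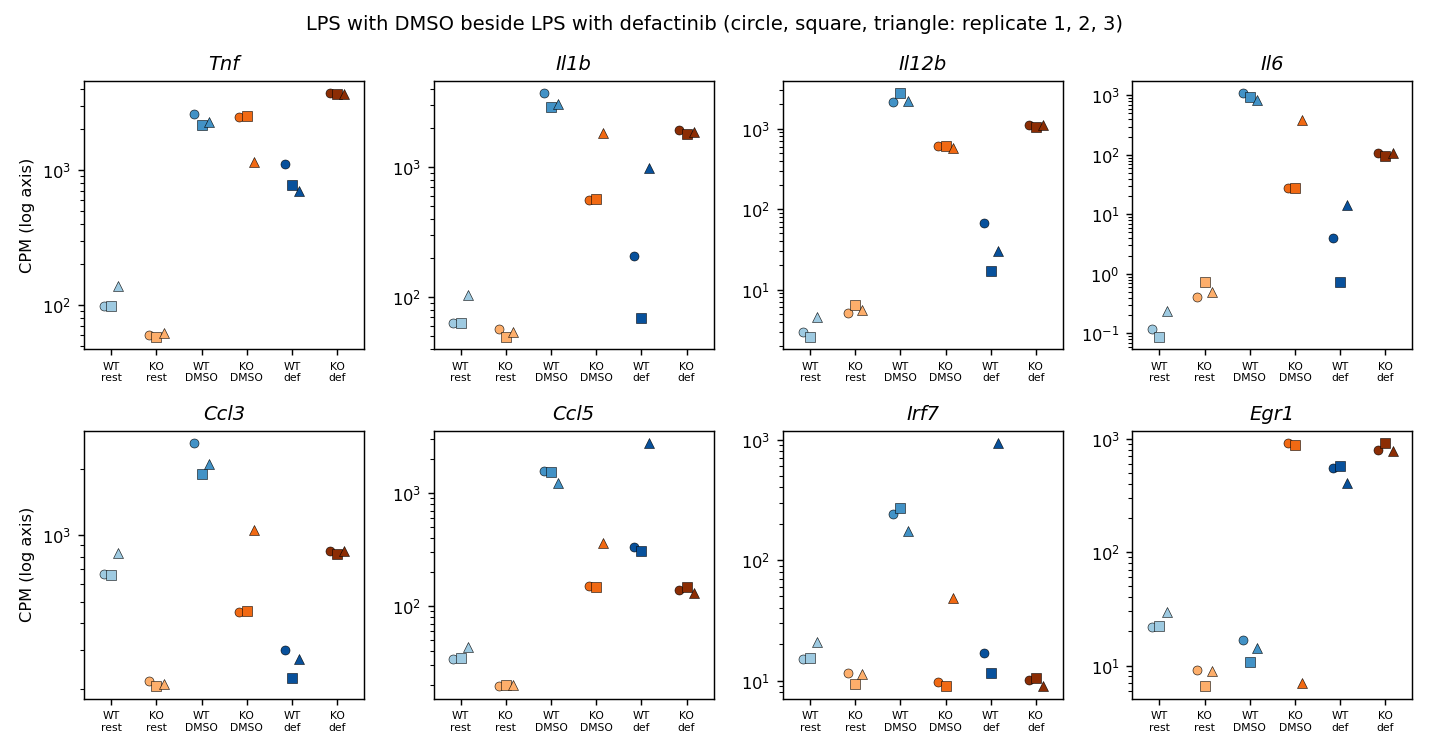
CPM (log axes, a separate scale per gene) of 8 genes in all 18 libraries, WT and IRF5 KO at rest, after LPS with DMSO and after LPS with defactinib; circle, square and triangle are replicates 1, 2 and 3. For Il12b and Il6, WT lies above IRF5 KO after LPS with DMSO and below it after LPS with defactinib, and the triangle of IRF5 KO LPS DMSO (for all genes shown but Il12b) and that of WT LPS defactinib (for Irf7 and Ccl5) lie apart from their groups.

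Genes near Irf5 were counted apart. Of 93 tested genes within 10 Mb of it 20 were called with the treatment (21.5%) and 8 remained (8.6%), beside 23% and 7.31% of the other 725 tested genes of chromosome 6 and 20% and 5.09% of all tested genes. Within 20 Mb, 50 of 181 genes were called (27.6%) and 25 remained (13.8%), beside 21.5% and 5.65% of the other 637 tested genes of the chromosome. Among the gene lists, a smaller share than the 20% of all genes was called for proliferation (2 of 28 lower in treated WT), MHC class II (1 of 12 higher) and adhesion and focal adhesion (2 higher and 3 lower of 32). Near that share were hypoxia and glycolysis (1 higher and 4 lower of 22) and heat shock (1 higher and 3 lower of 16). Some of the most abundant genes of these 5 lists lay close together with the treatment. Itgb2, the beta2 integrin, was at 2710, 2680 and 2760 CPM in treated WT and 2650, 2720 and 2590 CPM in treated IRF5 KO (0.03 ± 0.10). Hsp90ab1, a cytosolic chaperone, was at 3210, 3070 and 3120 CPM against 3310, 3180 and 3290 CPM (-0.06 ± 0.06). Cd74, the class II invariant chain, was at 11200, 14700 and 9260 CPM against 13100, 13500 and 12200 CPM (-0.14 ± 0.14). Hspa5, the chaperone BiP, differed by -0.84 ± 0.07 (adjusted p = 1.2e-06), with 958, 840 and 920 CPM in treated WT and 1650, 1570 and 1630 CPM in treated IRF5 KO, short of the 2-fold.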

How the data were processed

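RNA-seq of BMDMs from WT and IRF5 KO mice was used. The deposited values are raw counts: for each Ensembl gene, the read pairs that the authors assigned to its exons with featureCounts on the reverse strand, from STAR alignments to mm10. Multimapped reads are not in the counts, so near-identical genes are undercounted, and alignments were not analysed here. All value columns were mapped to a sample (0 were not). Symbols and positions were taken from GENCODE, for 50376 of 50600 gene IDs. The counts had a total of 40682747 to 61949143 in the 12 libraries of the main comparison, and the lowest of all 18 was 39282181.

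Genotypes were compared by quasi-likelihood F tests in edgeR 4.0.16 under R 4.3.3, after TMM scaling and filterByExpr. The 12 libraries of 4 groups entered 1 robust model with a mean for each group and no replicate block. Tests were two-sided with Benjamini-Hochberg adjustment over 15146 genes. The study's thresholds were used, an adjusted p below 0.05 and a fold change above 2. SE was the log2 fold change divided by the square root of F. The LPS DMSO groups were fitted with all 18 libraries. CPM used TMM library sizes, and list means used log2 CPM with a prior count of 2. The script was tested on simulated data. Alternatives were other normalizations and filters, DESeq2 1.42.0, limma-voom 3.58.1, glmTreat, the replicate block, all libraries or only the groups compared, no fold threshold, and leaving out each library; the comparison of the contrasts with LPS DMSO and the counts of list members under each alternative were added after the data were seen.

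Replicate numbers were not taken as pairs, and where replicates share a culture or mouse, p-values measure technical spread. Named genes are those the study names, the 4 largest per class and direction (mean log2 CPM 3 or higher, genotypes not overlapping), up to 2 per direction among opposite signs, the 2 most abundant of each of 24 lists, and genes said to be chosen after their values were seen; symbols without a proper name were counted but not named. Some named genes are counted only in their list. The comparison, lists and rules were chosen with earlier results of these data known.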

Additional observations from a re-analysis of the deposited data

Results flagged for a closer look

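The genotype difference differed between rest and LPS with defactinib, by the interaction test of edgeR, for 1828 of 15146 genes. Among them were 52 of the 113 named genes. That count follows in part from the naming, which drew on this test and on values already seen. The values below are the change of the log2 fold change of WT over IRF5 KO, from rest to treatment. With no call at rest and lower in treated WT, the change was -2.99 for Tnf, -3.71 for Il1a, -4.06 for Il12b, -4.39 for Mex3b, -3.50 for Ptafr, -3.34 for Dusp5, -3.36 for Irf4, -2.51 for Klf6, -1.33 for Mcl1 and -2.62 for Tiparp. In the same class, named after their values were seen, it was -1.64 for Irf1, -1.61 for Traf6, -1.92 for Irak2, -1.11 for Cd14, -2.37 for Cxcl1, -2.36 for Cxcl2, -2.28 for Cxcl10, -1.18 for Nfkbiz, -3.08 for Socs3, -1.15 for Nfkbia, -1.09 for Jun, -2.52 for Nr4a1, -1.90 for Ahr and -2.74 for Hmgcs1. With no call at rest and higher in treated WT, it was 2.53 for Relt, 1.82 for Serinc5, 1.33 for Tnfsf8, 1.25 for Gpr35, 1.09 for Ccl22, 1.55 for Klrk1 and 1.29 for Mx2.

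Of genes called at rest and not with the treatment, the change was -2.90 for Fst, -1.52 for Inhba, -1.91 for Sema7a, -2.33 for Furin, -2.53 for Ccl4 and -2.28 for Egr1, and 2.71 for Dpysl5, 1.79 for Il2ra, 1.94 for Dpp4, 1.86 for Dpy19l3 and 1.74 for Ccnd2. Of genes that turned, it was -3.42 for Ccl3, -3.82 for Osm and -3.60 for Trib1. Of genes called in both conditions in the same direction, it was 1.24 for Il33, -4.30 for Gpr183, -3.15 for Lif, -2.44 for Gata2 and 1.20 for Thy1. Irf5 (-1.15) and Nqo1 (-1.06) changed by more than 2-fold without a called difference in the treated cells. The change of Thy1 (adjusted p = 0.0455) was not called without most single libraries. That of Nqo1 was -0.89 without WT LPS defactinib replicate 3 and -0.97 without WT unstimulated replicate 3. Those of Jun (-0.81), Mx2 (0.79) and Il2ra (0.98) were short of the 2-fold without WT LPS defactinib replicate 3, as were those of Irf5 (-0.99) without replicate 1 and Cd14 (-0.88) without replicate 2 of the same group, Ccl22 (0.94) without IRF5 KO unstimulated replicate 2 and Nfkbiz (-0.98) without WT unstimulated replicate 3. The changes of Il33 and Inhba lost their call without several single libraries.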

How the results depend on the processing

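Of 339 values of the 113 named genes, none of the 153 that were called changed sign under an alternative, and 45 in all did so, each of them not called. Scaling by library size alone turned the majority direction of the resting calls (583 higher and 741 lower) and of the calls in the change (1225 and 832). With limma-voom, DESeq2, its size factors in edgeR, no filter, scaling by library size or all 18 libraries, the counts of calls and of genes that remained, appeared or vanished stayed within 1.5 times. Fits of only the groups compared, run for the calls with the treatment (2601) and at rest (1397), did so too. A filter of at least 5 CPM in 3 libraries, which tests fewer genes, left 1688 calls with the treatment, 615 at rest, 390 that remained and 83 that vanished. Without the fold threshold the counts were 7424 with the treatment, 3643 at rest, 4237 in the change, 1982 that remained, 2775 that appeared and 561 that vanished; with the threshold inside the test (glmTreat) they were 1423, 451, 527, 277, 421 and 23. Leaving out each library gave 2837 to 3207 calls with the treatment, 1068 to 1449 at rest, 1675 to 2054 in the change, 671 to 853 that remained, 1111 to 1369 that appeared and 117 to 191 that vanished. After LPS with DMSO the count went from 4036 to 5538 without IRF5 KO LPS DMSO replicate 3.

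Among 18 pairs of same-numbered libraries the residuals correlated at 0.0264 (median), with 0 pairs above 0.1. These residuals show no pairing by number. With 3 libraries per group they cannot exclude that same-numbered libraries share a mouse or culture. With the replicate block the counts were 2961 with the treatment, 1254 at rest, 1802 in the change, 756 that remained, 1183 that appeared and 145 that vanished, of which 738, 1145 and 136 were shared with the main result. Without WT LPS defactinib replicate 3, 9 of 339 values of named genes lost their call and 18 gained one. Each group holds 3 libraries, and the part of depth in these counts was not tested. The causes were not tested.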
